A study of Mus musculus with 12 samples.

Results

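Cytosolic ribosomal proteins build the 2 subunits of the ribosome that translates nuclear messenger RNA. Their genes were followed here across 12 mouse RNA-seq libraries. A gene belonged to the set when its Ensembl identifier carried a protein-coding GENCODE M21 symbol of the form Rpl or Rps, then digits, then optionally a or x. That rule found 72 genes, 43 of the large subunit (Rpl) and 29 of the small subunit (Rps), among 54104 Ensembl genes of the deposited matrix. All 72 passed the filter on low values, as did 13610 genes in all. Symbols of another form were not members, so the stalk proteins Rplp0, Rplp1 and Rplp2, the small subunit proteins Rpsa and Rps3a1, and the ubiquitin-like fusion Fau are described apart.

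The libraries formed 4 groups of 3, labelled Ly6C tumor, Ly6C spleen, Ly6G tumor and Ly6G spleen. The series compares monocytic and polymorphonuclear myeloid-derived suppressor cells (M-MDSCs and PMN-MDSCs), immature myeloid cells that accumulate in tumor-bearing hosts and restrain T cells. Ly6C and Ly6G are the surface proteins that usually tell the 2 kinds apart. The labels gave no strain, age, tumor model, sorting gate or treatment, and nothing says that the 3 libraries of a group came from separate animals, so p-values measure the spread between libraries, which may be technical.

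The ribosomal protein genes are among the most coordinately expressed genes of a mammalian cell, since each subunit needs 1 copy of nearly every protein. Their promoters are compact, and transcription starts at a C followed by a run of pyrimidines, the terminal oligopyrimidine (TOP) tract. Through that tract the kinase complex mTORC1 and the RNA-binding protein Larp1 control translation of these messages. Cells that grow and divide are known for large amounts of these transcripts, and granulocytes are known to lose ribosomes as they mature.

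Values are FPKM, fragments per kilobase of gene model, scaled to the library's size, so levels of different genes can be compared per length. The 12 libraries summed to 331681 to 449309 FPKM, and 10379 to 12337 genes per library reached 1 FPKM. Read counts were not used here, so the counting error of a value is unknown. Changes are differences of log2(FPKM + 1) between group means with their standard errors from limma, fitted over all 13610 genes, with 0.05 as the threshold on the Benjamini-Hochberg adjusted p. The labels were checked against marker genes first. The summed level of 10 pan-leukocyte genes (Ptprc, Tyrobp, Coro1a and others) was 225 to 463 FPKM in Ly6C tumor against 3793 to 4352 FPKM in Ly6C spleen. It was 608 to 1029 FPKM in Ly6G tumor against 5051 to 5334 FPKM in Ly6G spleen. All 10 were lower in Ly6C tumor and 9 of 10 in Ly6G tumor. Ly6g itself averaged 12.96 ± 1.03, 166 ± 40.05, 39.1 ± 13.02 and 651 ± 63.6 FPKM in Ly6C tumor, Ly6C spleen, Ly6G tumor and Ly6G spleen (SD, n = 3 each). Ly6c2 averaged 7.05 ± 0.976 FPKM in Ly6C tumor against 6.69 ± 1.27 FPKM in Ly6G tumor, and 247 ± 24.8 FPKM in Ly6C spleen against 214 ± 38.6 FPKM in Ly6G spleen, so Ly6c2 alone did not separate the labels. Of the 7 monocyte markers 4 were higher in Ly6C spleen than in Ly6G spleen and none lower (22.1% and 8.59% of all genes tested). Their sums there were 567 ± 206 and 267 ± 21.8 FPKM (SD, n = 3 each). In tumor none of the 7 passed between the labels, with mean sums of 79.3 FPKM in Ly6C and 78.2 FPKM in Ly6G. Of 6 epithelial or tumor cell markers, the keratins Krt8 and Krt18 passed the filter and the list summed to 753 to 1019 FPKM in Ly6C tumor, 445 to 754 FPKM in Ly6G tumor and at most 1.23 FPKM in any spleen library. Epcam was listed at 0 in every Ly6C tumor library. The 6 fibroblast markers summed to 188 to 359 FPKM in Ly6C tumor and 134 to 316 FPKM in Ly6G tumor, against at most 1.03 FPKM in a spleen library. The 10 neutrophil markers summed to 1339 to 2545 FPKM in Ly6C tumor against 64832 to 101400.0 FPKM in Ly6C spleen, and to 4096 to 8220.1 FPKM in Ly6G tumor against 125463 to 159296 FPKM in Ly6G spleen, all 10 lower in tumor in both labels. The monocyte, B cell, T cell and erythroid lists also summed lower in every tumor library than in any spleen library of the same label. The 7 monocyte markers were mixed in Ly6G, with 4 lower in tumor and 1 higher, against 6 lower and 0 higher in Ly6C. Ly6c2 alone held 214 of the mean 267 FPKM of the monocyte list in Ly6G spleen. The tissue differences below moved together with these marker sums, and the part of the cell makeup in them was not tested. In bulk RNA a smaller number of cells of a type and less RNA per cell cannot be told apart.

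The ribosomal protein genes took a far larger part of the transcriptome in the tumor libraries. Their summed share of all FPKM was 9.72, 10.2 and 9.31% in the Ly6C tumor libraries, against 2.13, 2.81 and 1.88% in the Ly6C spleen libraries. It was 7.80, 7.48 and 6.19% in the Ly6G tumor libraries, against 2.06, 2.06 and 2.88% in the Ly6G spleen libraries. Every tumor library lay above every spleen library. Within the tumor, every Ly6C library lay above every Ly6G library, whereas the spleen groups overlapped. The neutrophil proteins S100a8 and S100a9 took 18.2 ± 4.17% and 27.9 ± 4.001% of all FPKM in Ly6C and Ly6G spleen (SD, n = 3 each). With those genes left out, the share was 9.77 ± 0.410%, 2.77 ± 0.455%, 7.28 ± 0.855% and 3.22 ± 0.468% in Ly6C tumor, Ly6C spleen, Ly6G tumor and Ly6G spleen. The large subunit genes summed to 1.30, 1.32 and 1.30 times the small subunit genes in Ly6C tumor against 1.12, 1.12 and 1.09 times in Ly6C spleen. That ratio was 1.36, 1.31 and 1.29 in Ly6G tumor against 1.09, 1.11 and 1.14 in Ly6G spleen, so the balance of the summed levels also differed by tissue without overlap. No test was made of these sums, because they run over a chosen list.

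**Figure D1:**
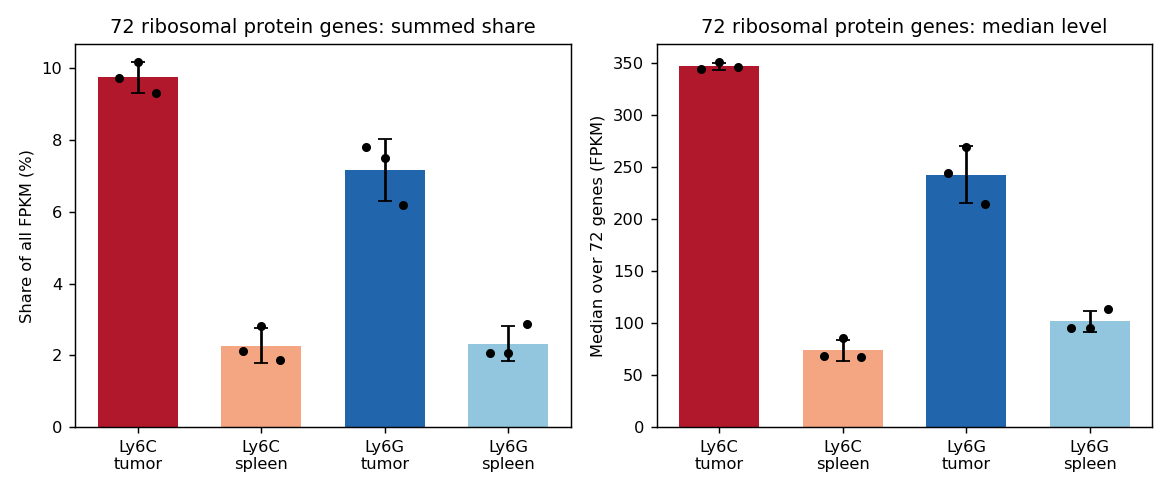
Summed share of all FPKM (left, percent) and median FPKM (right) of the 72 ribosomal protein genes in each library. Points are libraries, bars are means of 3 and lines are 1 SD. The tumor libraries lie between 6.19% and 10.2%, all above the spleen libraries, which lie between 1.88% and 2.88%.

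Levels within the family were uneven. The mean over the 12 libraries ran from 12.4 FPKM to 1279 FPKM, a 103-fold range, with a median gene at 195 FPKM. Rpl36, Rps15 and Rps2 were the highest, at 1279, 985 and 815 FPKM. Rpl36a, Rpl15 and Rps13 were the lowest, at 20.2, 14.5 and 12.4 FPKM. All 6 encode core proteins that a ribosome carries in 1 copy, so the order of the FPKM does not follow the make-up of the ribosome. Members with shorter gene models tended to have higher FPKM (across the 72 genes, which are not independent, Pearson's r = -0.463 on log scales and Spearman's rho = -0.454). Processed pseudogenes share sequence with these genes: 294 entries named as ribosomal protein pseudogenes summed to 54.8% to 64.0% of the members' own sum in every library, so fragments may have been split between a gene and its copies and single levels are uncertain.

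**Figure D2:**
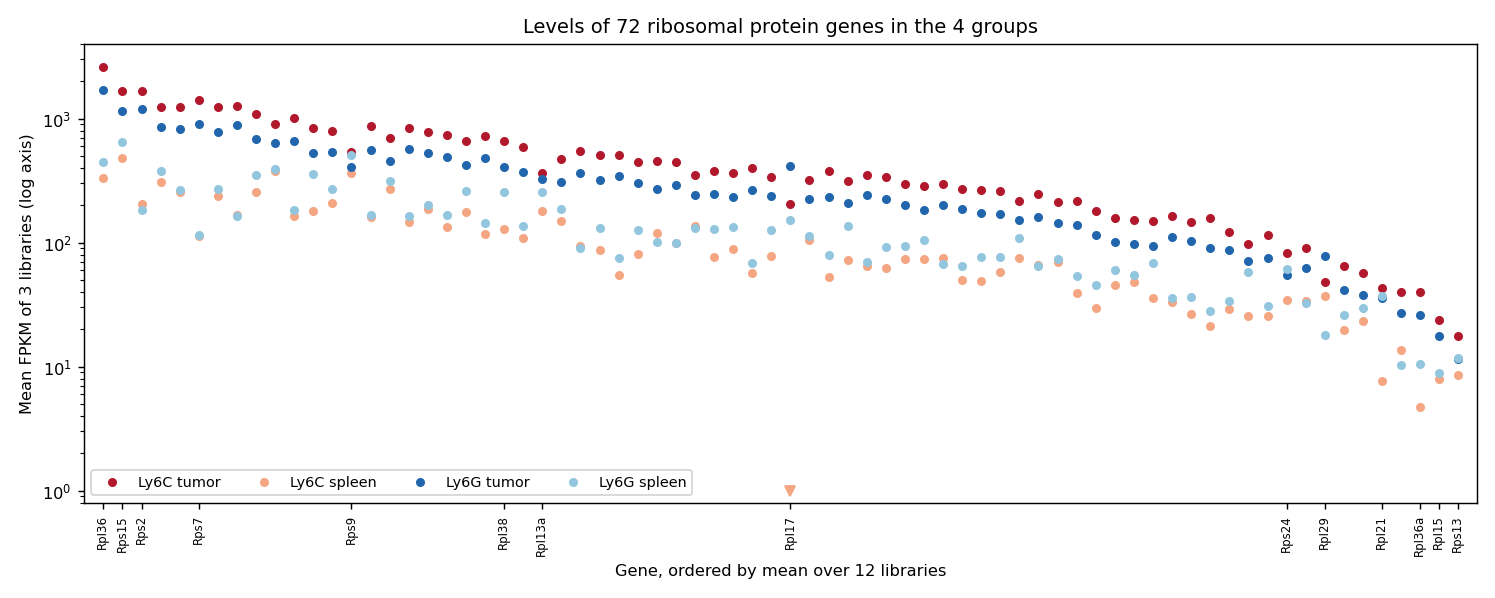
Mean FPKM of 3 libraries (log axis) for each of the 72 genes (some labelled by name), ordered by the mean over 12 libraries, in Ly6C tumor, Ly6C spleen, Ly6G tumor and Ly6G spleen. Tumor means lie above spleen means along nearly the whole range, and the arrowhead marks Rpl17, listed at 0 in Ly6C spleen.

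In Ly6C libraries, nearly the whole family was higher in tumor than in spleen. Of the 72 genes, 69 rose and none fell (46.2% of all genes tested rose and 30.5% fell), and 67 rose by at least 2-fold. Their median log2 difference was 2.12, against 0.27 over all genes tested, and for 70 of 72 every tumor library lay above every spleen library (47.0% of all genes tested). All 29 small subunit genes and 40 of 43 large subunit genes rose. The 3 that did not pass were Rpl29 (0.08 ± 0.82), Rpl13a (1.07 ± 0.48) and Rpl21 (2.60 ± 1.13), whose libraries disagreed within a group. The median stayed above 0 under every scaling between libraries, from 1.74 to 5.73 on the log2 scale. Scaling moved the median of all genes too, to 0.20 with an equal sum per library, 0.02 with median-of-ratios factors and 3.07 when libraries were scaled to the pan-leukocyte genes.

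The genes with the largest differences in Ly6C came from both subunits. Rps7 (GRCm38, chr12:28630854-28635953, minus strand), a small subunit protein needed to process the precursor of the small subunit's rRNA, had 1372, 1504 and 1364 FPKM in Ly6C tumor against 101, 140.5 and 98.8 FPKM in Ly6C spleen. The groups were far apart, a log2 difference of 3.65 ± 0.17 (adjusted p = 3.71e-09, limma). Rpl12 (chr2:32961559-32965345, plus strand), a protein at the base of the stalk where elongation factors bind, had 501, 546 and 478 FPKM in Ly6C tumor against 47.7, 70.2 and 46.7 FPKM in Ly6C spleen, a difference of 3.21 ± 0.19. Rps2 (chr17:24718116-24721929, plus strand), at the entry of the messenger RNA channel, had 1865, 1601 and 1543 FPKM against 188, 251 and 172 FPKM, a difference of 3.04 ± 0.19. None of these groups overlapped. The largest fitted difference, 5.72 ± 1.91 for Rpl17, rests on libraries listed at 0 and is taken up below.

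The structural groups of the ribosome moved in the same direction in Ly6C. Rpl5 and Rpl11, which form a particle with 5S rRNA and can bind the p53 regulator Mdm2, rose by 2.12 ± 0.17 and 2.04 ± 0.15. Rpl3, Rpl4 and Rpl10, which reach towards the site of peptide bond formation or act late in building it, rose by 2.56 ± 0.20, 2.28 ± 0.16 and 2.29 ± 0.18. All 9 listed proteins around the exit tunnel passed, among them Rpl39, one of the smallest ribosomal proteins, at 2.86 ± 0.21, and Rpl22, which in mouse also regulates lymphocyte development, at 2.94 ± 0.26. Those 9 include Rpl17, whose difference rests on libraries listed at 0. The 4 proteins that touch the messenger RNA at its entry or exit (Rps2, Rps3, Rps26 and Rps28) rose by 3.04, 1.37, 2.48 and 2.44. Of 14 listed genes mutated in human Diamond-Blackfan anaemia, a failure of red cell production, all 14 rose in Ly6C and 13 in Ly6G, with Rps24 the one that did not pass there. In the whole family 69 of 72 rose in Ly6C and 65 in Ly6G (46.2% and 51.5% of all genes tested). The counts of these lists are near those of the family and show nothing particular to them. Rps19, the gene most often mutated in that disease, had 90.7, 93.9 and 88.9 FPKM in Ly6C tumor against 30.8, 40.6 and 30.7 FPKM in Ly6C spleen, a difference of 1.41 ± 0.13.

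Smaller differences came from a handful of genes. Rps9 (chr7:3703993-3706897, plus strand), a small subunit protein known in yeast to help keep decoding accurate, had 549, 519 and 539 FPKM in Ly6C tumor against 399.6, 372 and 313 FPKM in Ly6C spleen. The difference was 0.57 ± 0.15 (adjusted p = 0.00360, limma), and it turned to -0.10 (adjusted p = 0.464) under quantile normalization. Rps13 (chr7:116331505-116334195, minus strand), whose bacterial relative binds ribosomal RNA early in assembly, had 16.5, 18.4 and 18.4 FPKM against 8.81, 9.68 and 7.16 FPKM, a difference of 0.98 ± 0.12. Rps6, the small subunit protein phosphorylated by S6 kinase downstream of mTORC1, stood above the median with a difference of 2.62 ± 0.15. Rps14, of which 1 copy is lost in a human deletion syndrome with anaemia, was near the median at 2.01 ± 0.18.

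The start sites of the leading and lagging genes are shown because the family is known for its TOP tract. Each line gives 60 bases of the RefSeq promoter table (GRCm38.p6), 40 before the annotated start and 20 from it, 5′ to 3′ on the gene's strand, with every C followed by 4 or more pyrimidines in capitals. In Ly6C the first 4 genes had the largest steady differences with a table entry. The last 4, all on chromosome 7, were among the genes with small differences and were picked by no rule. Rps3, Rps19 and Rps24 also have entries, and their differences in Ly6C were smaller than that of Rpl28. Of the last 4, Rpl13a had libraries that disagreed within a group. Rpl28 stood at 1.33 in Ly6G, above the members' median of 1.24 there. All 8 were chosen after their values were seen.
Rps7 (chr12:28635934-28635993, minus strand): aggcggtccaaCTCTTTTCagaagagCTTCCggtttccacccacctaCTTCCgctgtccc
Rps2 (chr17:24720023-24720082, plus strand): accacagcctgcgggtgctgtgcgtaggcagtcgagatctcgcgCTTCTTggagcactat
Rpl12 (chr2:32961672-32961731, plus strand): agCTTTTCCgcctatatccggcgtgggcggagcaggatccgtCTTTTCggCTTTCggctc
Rpl13 (chr8:123102310-123102369, plus strand): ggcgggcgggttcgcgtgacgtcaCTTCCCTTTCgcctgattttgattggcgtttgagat
Rps9 (chr7:3704001-3704060, plus strand): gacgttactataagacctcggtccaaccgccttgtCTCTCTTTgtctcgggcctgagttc
Rps13 (chr7:116334171-116334230, minus strand): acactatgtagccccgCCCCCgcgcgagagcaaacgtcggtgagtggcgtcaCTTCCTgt
Rpl13a (chr7:45128726-45128785, minus strand): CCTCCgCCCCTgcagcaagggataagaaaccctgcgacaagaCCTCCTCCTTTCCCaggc
Rpl28 (chr7:4792925-4792984, plus strand): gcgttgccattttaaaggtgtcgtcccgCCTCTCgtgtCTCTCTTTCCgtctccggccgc
Runs of pyrimidines stand in both sets: the longest is 8, 6, 7 and 10 bases in the first 4 genes, and 8, 6, 14 and 10 bases in the last 4. Of 53 members with an entry, 34 (64.2%) held a C followed by 6 or more pyrimidines on the sense strand between 30 bases before and 30 bases from the start, against 30.9% of 9115 other tested genes and 29.7% of all 27025 genes of the promoter table. CCGGAAG, the core bound by ETS factors such as GABP, stood within 250 bases before and 50 after the start on either strand in 39.6% of members against 20.6% and 9.93%. TATAAA on the sense strand stood in 7.55% against 5.27% and 9.77%, and GGGCGG on either strand in 58.5% against 69.5% and 38.2%. The other strand of CCGGAAG can overlap a pyrimidine tract. A match describes the letters of the window and is not a site.

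In Ly6G libraries the family was also higher in tumor than in spleen, by a smaller margin. Of the 72 genes, 65 rose and none fell (51.5% of all genes tested rose and 24.7% fell), and 42 rose by at least 2-fold. The median log2 difference was 1.24, against 0.43 over all genes tested. For 63 genes every tumor library lay above every spleen library, and for 1 every tumor library lay below (53.2% and 26.0% of all genes tested). Of the large subunit genes 41 of 43 rose, and of the small subunit genes 24 of 29. The median stayed above 0 under every scaling, from 0.72 to 3.61, and with median-of-ratios factors 50 rose and 3 fell (38.6% and 37.0% of all genes tested).

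The same names led the list in Ly6G. Rps7 had 946, 1034 and 751 FPKM in Ly6G tumor against 107, 112 and 123 FPKM in Ly6G spleen, a difference of 2.97 ± 0.17 (adjusted p = 2.25e-08, limma). Rps2 had 1251, 1217 and 1143 FPKM against 163, 154 and 231 FPKM, a difference of 2.74 ± 0.19. Both pairs of groups lay far apart. The 7 that did not pass were Rpl21 (-0.52), Rps9 (-0.32), Rps24 (-0.16), Rps13 (-0.03), Rpl13a (0.15), Rps27 (0.28) and Rps25 (0.33). Rps24 had 56.9, 61.4 and 46.1 FPKM in Ly6G tumor against 57.5, 55.05 and 72.1 FPKM in Ly6G spleen, and Rps25, needed by some viral messages to start translation, had 39.2, 43.1 and 31.4 FPKM against 31.5, 28.9 and 28.9 FPKM. For Rps24 the groups overlapped, and for Rps25 they did as well through the library with the highest mitochondrial share. Rps9 had 413, 423 and 385 FPKM in Ly6G tumor against 499, 439 and 592 FPKM in Ly6G spleen, the 1 gene whose tumor libraries all lay below, with a difference of -0.32 ± 0.15 (adjusted p = 0.0681, limma).

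The tumor-spleen difference was itself larger in Ly6C than in Ly6G for many members. The interaction passed for 47 of 72 genes, all with the larger difference in Ly6C (6.02% of all genes tested passed that way and 15.8% the other way). The median member differed by 0.93 on the log2 scale and the median of all genes by -0.10. Rpl38, through which in mouse the translation of some Hox messages is controlled, had 567, 685 and 719 FPKM in Ly6C tumor and 103, 166 and 115 FPKM in Ly6C spleen. In Ly6G it had 431, 406 and 373 FPKM in tumor and 237, 215 and 315 FPKM in spleen. Its tissue differences of 2.37 and 0.67 differed by 1.70 ± 0.28 (adjusted p = 0.00232, limma). Rps21, a small subunit protein, followed with 1.66 ± 0.29, and Rpl36a and Rps27a, a ribosomal protein made as a fusion with ubiquitin, with 1.63 ± 0.28 and 1.49 ± 0.23. The count of 47 was 15 with an equal sum per library, 31 without Ly6G tumor 3 and 19 without the 2 tumor libraries of highest mitochondrial share (Ly6C tumor 3 and Ly6G tumor 3), while the median stayed above 0 in each scaling, from 0.49 to 2.11. Of all genes tested 2.02, 4.17 and 2.13% passed in that direction in those settings, in the same order.

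**Figure D3:**
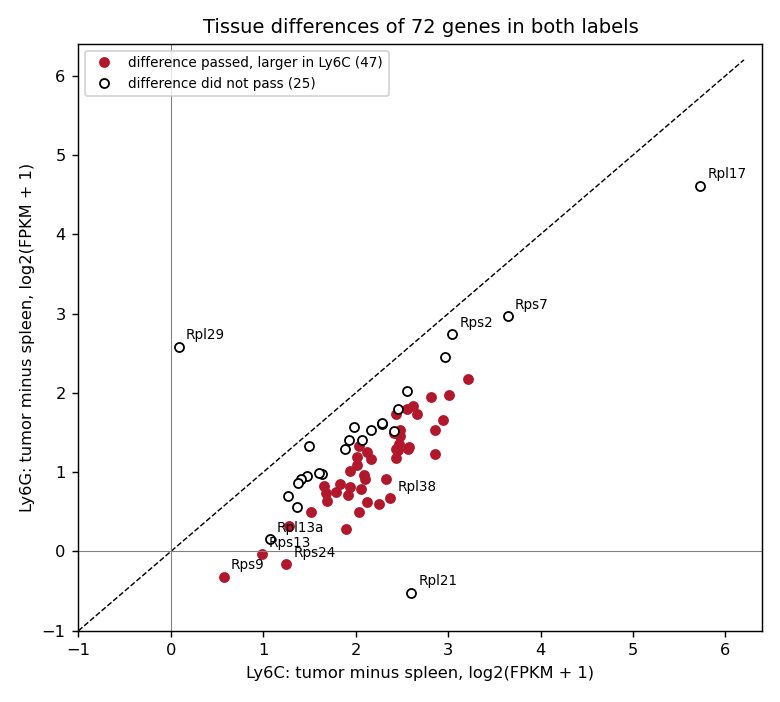
Log2 difference between tumor and spleen in Ly6C (x axis) and Ly6G (y axis) for the 72 genes, on log2(FPKM + 1). Filled points are the 47 genes whose differences passed the interaction test, and the dashed line marks equal differences, below which nearly all genes lie.

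Between the labels within tumor, the family was higher in Ly6C. Of the 72 genes 40 were higher in Ly6C tumor than in Ly6G tumor and none lower (5.8% and 8.7% of all genes tested), with a median difference of 0.59 against 0.04. For 68 genes the libraries did not overlap (24.1% of all genes tested lay above in that way). Rpl7a, a large subunit protein, had 475, 441 and 441 FPKM in Ly6C tumor against 260.0, 260.4 and 286 FPKM in Ly6G tumor, a difference of 0.75 ± 0.15 (adjusted p = 0.00916, limma). Rpl22 had 150.2, 163 and 159 FPKM in Ly6C tumor against 78.9, 105 and 88.2 FPKM in Ly6G tumor, a difference of 0.80 ± 0.26 that did not pass. No member differed by 2-fold and passed. The number of passing genes was fragile: it was 5 with an equal sum per library, 12 under quantile normalization and 3 to 60 when 1 library was left out (14, 5 and 3 without Ly6C tumor 1, 2 and 3, and 17, 15 and 4 without Ly6G tumor 1, 2 and 3). None passed without both libraries of highest mitochondrial share, although the median remained 0.51. The share of all genes tested called higher was 0.794% with an equal sum per library and 8.99% under quantile normalization. It was 0.0661% without both libraries of highest mitochondrial share. Without Ly6C tumor 1, 2 and 3 it was 2.55, 0.852 and 0.580%. Without Ly6G tumor 1, 2 and 3 it was 2.56, 2.31 and 0.845%. The mitochondrial share was 4.49, 3.07 and 7.84% in the Ly6C tumor libraries and 5.41, 5.57 and 11.9% in the Ly6G tumor libraries, the pan-leukocyte sum was lower in every Ly6C tumor library and the epithelial sum was 878 ± 134 against 632 ± 164 FPKM (SD, n = 3 each). The part of these in the result was not tested.

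In spleen the members that passed were lower in Ly6C. Of the 72 genes 19 were lower in Ly6C spleen than in Ly6G spleen and none higher (8.59% and 22.1% of all genes tested), and for 23 every Ly6C library lay below every Ly6G library (13% of all genes tested). The median difference was -0.36, against 0.11 over all genes tested, and it ran from -0.62 to -0.0437 over the other scalings, with 33 of 72 members above 0 at an equal sum per library. Rps27, a zinc-binding small subunit protein, had 26.4, 27.8 and 22.2 FPKM in Ly6C spleen against 54.05, 49.1 and 71.1 FPKM in Ly6G spleen, a difference of -1.15 ± 0.16 (adjusted p = 4.85e-04, limma). Rpl36a had 3.83, 6.33 and 3.96 FPKM against 9.91, 8.85 and 12.8 FPKM, a difference of -1.03 ± 0.20, and Rpl38 differed by -1.005 ± 0.20. These groups did not overlap. Rpl28 and Rpl7a stood highest among members with steady libraries, at 0.37 ± 0.17 and 0.22 ± 0.15, and neither passed. The count depended on the scaling. At an equal sum per library 7 were lower and 3 higher (4.17% and 39.5% of all genes tested). The count of lower members was 51 with median-of-ratios factors (17.4% of all genes) and 0 scaled to the pan-leukocyte genes (0.808%). It was 35 without Ly6C spleen 2, 12 without Ly6C spleen 3 and 11 without Ly6G spleen 3 (8.50, 7.24 and 6.23% of all genes tested). B cell markers summed to 245 to 373 FPKM in Ly6C spleen and 725 to 1249.7 FPKM in Ly6G spleen, with 6 of 6 passing the filter and none at 0 in spleen. The 5 erythroid markers summed to 206 to 592 FPKM in Ly6C spleen and 872 to 2267 FPKM in Ly6G spleen. The neutrophil markers averaged 82533 FPKM in sum in Ly6C spleen against 146620 FPKM in Ly6G spleen. Other lists went the other way, with monocyte markers at 567 against 267 FPKM and cell cycle genes at 184 against 81.9 FPKM. All 6 cell cycle genes were higher in Ly6C spleen. The part of the cell makeup in the result was not tested.

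A shift shared by the whole family cancels when each library is centred on the mean of the 72 genes, and the remaining differences show which members moved unlike the rest. After centring, 20 members were above the family's change in Ly6C between tissues and 21 below (6.11% and 85.6% of all genes tested). In Ly6G 17 were above and 23 below (15.5% and 62.1%). Centring moves every other gene by the family's shift, so these shares restate that shift. With so many genes called in the tissue comparisons and their interaction, the adjusted p lies close to the unadjusted p. The centred calls of members are therefore barely corrected for multiple testing. Rps7 stood at 1.49 ± 0.13 in Ly6C and 1.75 ± 0.13 in Ly6G, Rps2 at 0.89 ± 0.13 and 1.51 ± 0.13, and Rpl12 at 1.06 ± 0.13 and 0.95 ± 0.13. At the other end Rps9 stood at -1.58 ± 0.13 and -1.54 ± 0.13, Rps13 at -1.17 ± 0.13 and -1.26 ± 0.13, and Rps24 at -0.91 ± 0.12 and -1.39 ± 0.12. These 6 genes passed in both labels. In tumor no member departed from the family between the labels, up or down (0.022% and 46.1% of all genes tested were called). At an unadjusted p under 0.05 limma called 0 of the 72 there as well. In spleen 16 were above and 8 below (55.3% and 2.55%), and the 8 were Rps27, Rpl36a, Rpl38, Rps21, Rps27a, Rpl37a, Rps24 and Rpl37. The same 8 were the members whose centred tissue difference was larger in Ly6C than in Ly6G, and 5 differed the other way (0.485% and 77.8% of all genes tested), namely Rpl29, Rpl28, Rps2, Rpl27 and Rps19. That count of 5 was 3 without Ly6C tumor 2 or without Ly6G tumor 3. Both comparisons use the same spleen libraries.

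Most members that lagged in Ly6C lay on chromosome 7. All 13 members on chromosome 7 were below the family's change, and they made up 13 of the 21 genes below. Their median log2 difference between tumor and spleen was 1.41, against 2.33 for the other 59 members. In Ly6G 9 of the 13 were below, with medians of 0.74 and 1.31, and 14 of the other 59 were below as well. Of all genes tested 85.6% were below the family's change in Ly6C and 62.1% in Ly6G. These centred calls are barely corrected for multiple testing, as said above. Among the 13 are Rps9, near one end of the chromosome, Rpl13a (chr7:45125558-45128761, minus strand), Rps13 and Rps15a (chr7:118104372-118116188, minus strand). Other genes of chromosome 7 stood low as well: 977 of them had a median of -0.19 in Ly6C, the lowest of 20 chromosomes, and 0.11 in Ly6G, the second lowest. Chromosome 14, with Rps24 and Rpl15, was the other low one, with medians of its other genes at -0.05 and 0.09, and chromosome 12, with Rps7 and Rps29, the highest at 0.55 and 0.66. Across the 19 chromosomes with members, the members' median and that of the other genes correlated with Pearson's r = 0.519 and a rank correlation (Spearman) of 0.419 in Ly6C, and with 0.382 and 0.279 in Ly6G, as a description. Grouping by chromosome was chosen after the values were seen, and its cause was not tested. Between the labels in tumor, where no member departed from the family, chromosome 7 members had a median of 0.56 and the others 0.60.

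**Figure D4:**
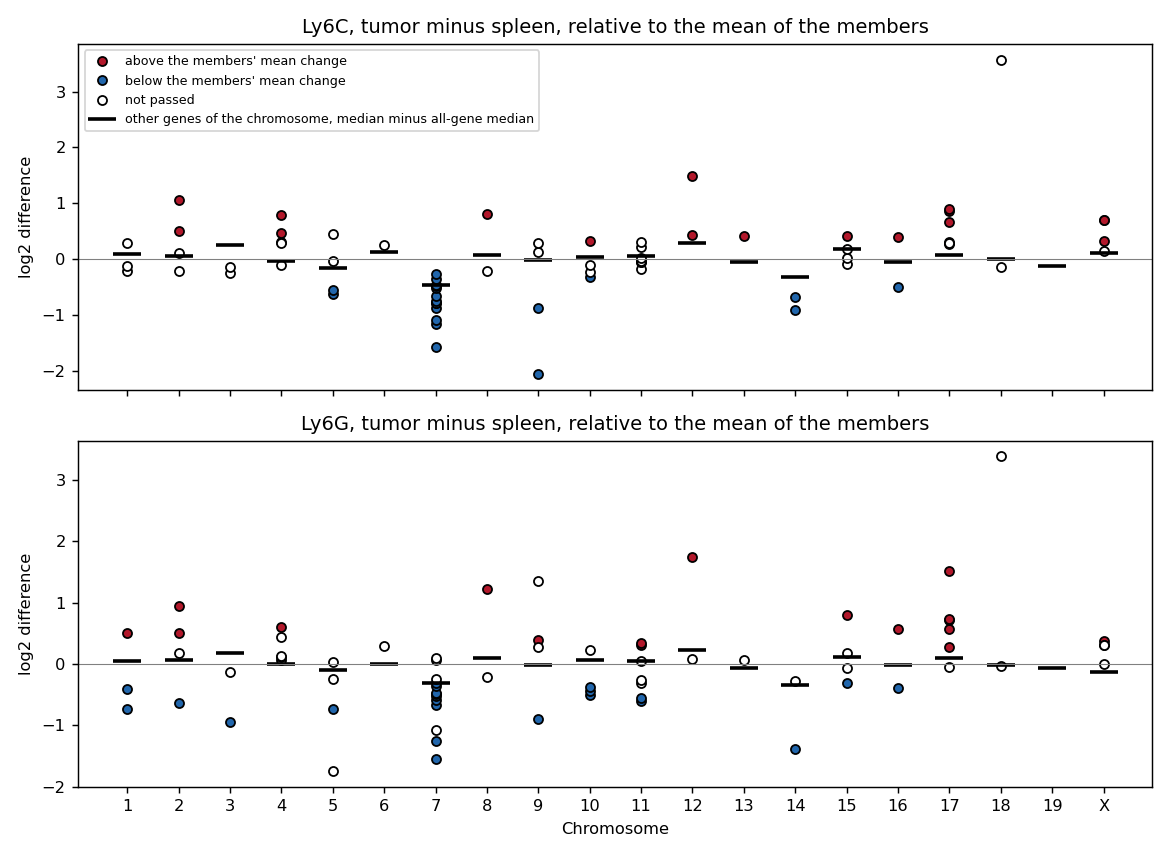
Log2 difference between tumor and spleen relative to the mean of the 72 genes, by chromosome, in Ly6C (top) and Ly6G (bottom). Each point is a gene, coloured where it passed above or below the family's change, and bars give the median of the chromosome's other genes relative to all genes. All 13 points of chromosome 7 lie below 0 in Ly6C.

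A few members varied within groups opposite to a row that lies inside them or across them. Many ribosomal protein genes host small nucleolar RNAs in their introns, which guide the modification of ribosomal RNA, and 27 members held 52 such rows on their own strand. Rpl17, a large subunit protein at the rim of the exit tunnel, had 566, 49.1 and 4.20 FPKM in Ly6C tumor against 0, 0 and 0 FPKM in Ly6C spleen. It had 475, 439 and 339.9 FPKM in Ly6G tumor against 9.90, 0 and 444 FPKM in Ly6G spleen. Snord58b, inside it, had 29.1, 461 and 459.8 FPKM in Ly6C tumor, 111, 149.9 and 98.8 FPKM in Ly6C spleen, 2.74, 27.3 and 9.004 FPKM in Ly6G tumor and 211, 206 and 2.43 FPKM in Ly6G spleen. Where one row was high the other was low, in libraries of the same group. Their sum was 595, 509.9 and 464 FPKM in Ly6C tumor against 111, 149.9 and 98.8 FPKM in Ly6C spleen. In Ly6G the sum was 478, 466 and 349 FPKM in tumor against 220.5, 206 and 446 FPKM in spleen. The sums did not overlap between tumor and spleen in Ly6C, and in Ly6G they did, with 1 spleen library far above the other two. With all rows on its strand added, the tissue difference of Rpl17 was 2.005 in Ly6C (adjusted p = 2.73e-05, limma) and 0.59 in Ly6G (adjusted p = 0.0653), against 5.72 and 4.62 for its own row. FPKM is divided by each row's own length, so such a sum is not a total of fragments or a corrected level.

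Rpl21 and Rpl13a also varied beside such a row. Rpl21 had 4.50, 59.4 and 65.8 FPKM in Ly6C tumor against 20.6, 1.92 and 0.588 FPKM in Ly6C spleen, and 50.6, 5.98 and 51.6 FPKM in Ly6G tumor against 41.8, 36.4 and 33.9 FPKM in Ly6G spleen. The small RNA row Gm25091 inside it had 288, 163 and 131 FPKM, 13.1, 105 and 71.1 FPKM, 76.04, 209 and 42.01 FPKM and 25.8, 25.4 and 102 FPKM in the same 4 groups. In 3 of the 4 groups the library lowest in Rpl21 was the highest in Gm25091. Rpl13a, which in human monocytes is known to leave the ribosome to silence inflammatory messages, had 482, 329 and 276 FPKM in Ly6C tumor against 236, 96.3 and 207 FPKM in Ly6C spleen, with the overlapping row Gm45713 at 211, 309.9 and 523 FPKM and 0, 211 and 1.05 FPKM. It had 462, 403 and 119 FPKM in Ly6G tumor against 222, 231 and 315 FPKM in Ly6G spleen, with Gm45713 at 0.423, 0 and 421 FPKM and 0, 0.870 and 0 FPKM. Adding the rows made its difference 1.49 in Ly6C (adjusted p = 2.04e-05, limma) and 0.83 in Ly6G (adjusted p = 0.00192). The same limit of row length holds for these sums. Rpl29, a heparin-binding large subunit protein, had 12.8, 38.9 and 93.5 FPKM in Ly6C tumor against 38.5, 54.6 and 18.9 FPKM in Ly6C spleen, and 60.7, 114 and 58.9 FPKM in Ly6G tumor against 40.1, 11.1 and 2.96 FPKM in Ly6G spleen. Its groups overlapped in Ly6C and not in Ly6G. With Rpl22 these were the 5 members whose libraries varied by more than 40% of the mean within a group. The strand setting of the counting is not given in the sources used here, and 20 members overlap a gene on the other strand, so those levels may include its fragments.

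**Figure D5:**
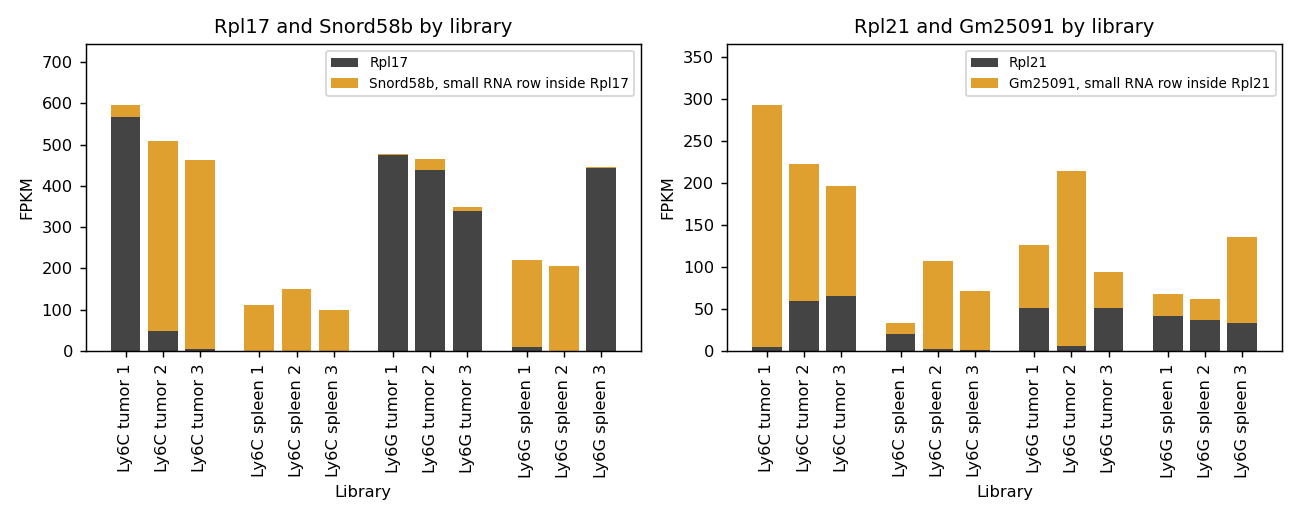
FPKM of Rpl17 and Snord58b (left) and of Rpl21 and Gm25091 (right) in each of the 12 libraries, stacked. In Ly6C tumor Rpl17 had 566, 49.1 and 4.20 FPKM while Snord58b had 29.1, 461 and 459.8 FPKM, and their stacked height varied far less. FPKM is divided by each row's own length, so the height is not a total of fragments.

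The ribosomal proteins outside the naming rule moved with the members. All 8 listed, among them Rplp0, Rplp1, Rplp2, Rpsa, Rps3a1, Fau and the scaffold protein Rack1, rose in Ly6C tumor and 7 in Ly6G tumor. Of all genes tested 46.2% and 51.5% rose, and the median log2 differences of the 8 were 2.06 and 1.35. Rplp1, an acidic stalk protein that recruits elongation factors, had 4659, 4417 and 4407 FPKM in Ly6C tumor against 749.9, 1002 and 623 FPKM in Ly6C spleen, a difference of 2.53 ± 0.22. Fau had 1.34 in Ly6C and 0.28 in Ly6G, the one that did not pass. Of 7 paralogs tested among 9 (Rpl10l and Rpl39l were too low), 4 rose and 2 fell in Ly6C, where 46.2% and 30.5% of all genes tested did. In Ly6G 3 rose and 3 fell, where 51.5% and 24.7% of all genes did, and these counts of so few genes show nothing particular to the paralogs. Rps4l fell to 0.727 ± 0.240 FPKM in Ly6C tumor, against 7.38 ± 0.707 FPKM in Ly6C spleen, a difference of -2.29 ± 0.15, while the X-linked Rps4x rose by 2.47 ± 0.20. Rpl3l, in mouse a muscle form of Rpl3, fell by 0.44 on the log2 scale in Ly6C and by 1.12 in Ly6G, at group means of at most 1.57 FPKM. Rpl22l1 had 0.42 in Ly6C, which did not pass, and fell by 0.54 in Ly6G, a fall that did not pass at an equal sum per library (-0.20, adjusted p = 0.42, limma), while Rpl22 rose in both. That fall of Rpl22l1 passed at -1.06 with median-of-ratios factors and -0.75 by quantile normalization. It also passed at -0.64 with an equal sum without S100a8 and S100a9. Rps4l and Rpl3l fell and passed in both labels in each of these scalings and at an equal sum per library. Scaled to the pan-leukocyte genes, no tested paralog fell: Rps4l was at 0.20 and -0.09, neither passing, and Rpl22l1 rose by 3.90 and 1.79. Under that scaling 90.4% of all genes tested rose and 3.89% fell in Ly6C, and 87.5% rose and 4.50% fell in Ly6G. Rps27rt, an intronless copy of Rps27, had 2234 ± 141 FPKM in Ly6C tumor against 97.4 ± 9.34 FPKM for Rps27 itself. Its differences of 2.04 in Ly6C and 0.32 in Ly6G stand beside 1.89 and 0.28 for Rps27, and fragments cannot be assigned between these copies with certainty.

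Other parts of the translation machinery mostly rose as well, where 46.2% of all genes tested rose and 30.5% fell in Ly6C, and 51.5% rose and 24.7% fell in Ly6G. The initiation complex eIF3, which loads the small subunit, had 13 of 13 subunits higher in Ly6C tumor (12 at an equal sum per library or with median-of-ratios factors) and 12 of 13 in Ly6G tumor (10 with median-of-ratios factors), with Eif3k lower in Ly6G at -0.32, a fall that was absent with an equal sum per library (0.0210, adjusted p = 0.898, limma) and turned to 2.06 scaled to the pan-leukocyte genes. The fall of Eif3k in Ly6G passed at -0.85 with median-of-ratios factors and -0.45 by quantile normalization. It also passed at -0.42 with an equal sum without S100a8 and S100a9. Eif3l led in Ly6C at 2.19 ± 0.13 and Eif3b in Ly6G at 2.13 ± 0.18. Under the scalings other than that to the pan-leukocyte genes, 37.2% to 43.2% of all genes tested rose in Ly6C and 37.2% to 59.9% in Ly6G. Of 8 tested elongation factors and their kinase, 7 rose in each label. Eef1g led in Ly6C at 3.35 ± 0.22 and Eef2, which moves the ribosome along the message, in Ly6G at 2.59 ± 0.19, and the kinase Eef2k fell in Ly6G at -0.45, against -0.20 at an equal sum per library, which did not pass (adjusted p = 0.15, limma), and 1.28 scaled to the pan-leukocyte genes. All 11 tested messages known to carry a TOP tract rose in both labels (9 in Ly6G with median-of-ratios factors, 10 there by quantile normalization, and 10 in Ly6C at an equal sum that left out S100a8 and S100a9), with the nucleolar chaperone Npm1 first at 3.51 ± 0.20 and 2.56 ± 0.20. All 10 chaperones and importers of ribosomal proteins rose in both (9 in Ly6G with median-of-ratios factors, by quantile normalization or at an equal sum without S100a8 and S100a9), with Tsr2, the chaperone of Rps26, at 2.21 ± 0.17 in Ly6C and Grwd1, which binds Rpl3, at 1.98 ± 0.20 in Ly6G.

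The controls of translation were more mixed, with falls that turned to rises when libraries were scaled to the pan-leukocyte genes. All 13 cap-binding factors then rose in both labels. Under that scaling 90.4% of all genes tested rose in Ly6C and 87.5% in Ly6G, so such rises show nothing particular to these lists. Of 13 cap-binding factors and their inhibitors, 7 rose and 2 fell in Ly6C (46.2% and 30.5% of all genes tested), and 9 rose and 1 fell in Ly6G (51.5% and 24.7%), with a median of 0.60 in Ly6G. With median-of-ratios factors 6 rose and 3 fell in Ly6G, with a median of 0.0756, where 38.6% of all genes tested rose and 37.0% fell. The poly(A)-binding protein Pabpc1 rose the most, by 2.53 ± 0.14 and 2.55 ± 0.14, and Eif4ebp2, an inhibitor of the cap-binding protein that mTORC1 switches off, fell in both, at -1.18 ± 0.10 and -0.65 ± 0.10. Of 12 genes of mTORC1 and TOP control, 8 rose and 2 fell in Ly6C, and 10 rose and none fell in Ly6G. In Ly6C 7 rose and 4 fell by quantile normalization (38.4% and 38.3% of all genes tested). There 5 rose and 3 fell at an equal sum without S100a8 and S100a9 (37.2% and 38.8%). In Ly6G 7 rose and 2 fell both with median-of-ratios factors and by quantile normalization. Of all genes tested 38.6% and 37.2% rose in those settings, and 37.0% and 37.6% fell. Deptor, an inhibitor within the mTOR complexes, rose the most, by 2.65 ± 0.20 and 2.83 ± 0.20, and Mlst8, a core subunit, fell in Ly6C at -2.39 ± 0.65 (0.90 scaled to the pan-leukocyte genes). Under the other scalings Mlst8 stood at -2.73 to -2.49 in Ly6C and Eif4ebp2 at -1.55 to -1.27, and both passed. Of 78 mitochondrial ribosomal protein genes, which translate the mitochondrial genome, 59 rose and 1 fell in Ly6C (median 0.80; 46 rose and 10 fell at an equal sum without S100a8 and S100a9) and 51 rose and 7 fell in Ly6G (median 0.60; 31 rose and 24 fell with median-of-ratios factors), against medians of 2.12 and 1.24 for the cytosolic set. With median-of-ratios factors 38.6% of all genes tested rose and 37.0% fell in Ly6G, so the 31 rises of 78 show nothing particular to this set there. The cell cycle genes did not follow the family: of 6, 1 rose and 5 fell in Ly6C, and 1 rose and 4 fell in Ly6G. Scaled to the pan-leukocyte genes, where 90.4% and 87.5% of all genes tested rose, all 6 rose in both labels. Their summed level was 75.7 ± 5.996, 184 ± 5.69, 56.02 ± 3.69 and 81.9 ± 16.7 FPKM in Ly6C tumor, Ly6C spleen, Ly6G tumor and Ly6G spleen (SD, n = 3 each).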

How the data were processed

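Total RNA of the 12 libraries was sequenced as paired-end reads, per the labels' protocols. Reads were aligned to GRCm38 with HISAT2 2.0.5 and counted per gene with featureCounts 1.5.0-p3, per the submitters' processing notes, and the deposited matrix holds FPKM per gene, in which the authors divided by gene length and library size. Neither the tool that computed FPKM nor the strand setting nor the treatment of multi-mapped reads is given in the sources used here. Of 54674 entries, 570 named no gene (0.463 to 1.04% of a library's FPKM) and were left out.

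Symbols and positions came from GENCODE M21 (GRCm38). Genes at 1 FPKM or more in 3 or more libraries were tested (13610). log2(FPKM + 1) was fitted with limma 3.58.1 (R 4.3.3) as 4 group means with a variance trend (8 residual and 3.4 prior degrees of freedom), without a replicate block, and p-values were adjusted by Benjamini-Hochberg over all genes tested. Fold changes on this scale understate the change of low genes. A second fit centred each library on the mean of the 72 members. Its p-values were adjusted over all genes tested, most of which pass in the tissue comparisons after centring. The script was tested on simulated data. Depth and counting error are unknown.

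The members and the gene lists were chosen with earlier results of these data known. Named were the 3 highest and 3 lowest members by level and, in each comparison and fit, by change, a set of members listed beforehand by function, stalk, fusion and paralog genes, and in every other list the passing gene with the largest rise and fall. Some genes are counted but not reported here by name. Gene positions are from the annotation, and promoters are from RefSeq (GRCm38.p6), which held 53 of 72 members. Alternatives were other scalings between libraries, pseudocounts of 0.1 and 5, other filters, fits to only the groups compared, a replicate block, no variance trend, and leaving out each library. Added after seeing the data were a scaling to 10 pan-leukocyte genes, adding the rows that overlap a member, leaving out both libraries of highest mitochondrial share, and refitting the other lists under each scaling.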

Additional observations from a re-analysis of the deposited data

Results flagged for a closer look

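The tumor-spleen difference was larger in Ly6C than in Ly6G for 47 members by the interaction term in limma. Among the members named by rule, these differences of log2 differences were 1.70 for Rpl38, 1.66 for Rps21, 1.63 for Rpl36a, 1.61 for Rps27, 1.49 for Rps27a and 1.41 for Rps24. Middle values were 1.32 for Rpl39, 1.28 for Rpl22, 1.26 for Rps28, 1.20 for Rpl41, 1.18 for Rpl23, 1.04 for Rpl12, and 1.02 for both Rps13 and Rps26. The smaller ones were 0.95 for Rps25, 0.94 for Rps4x, 0.89 for Rps9, 0.86 for Rpl5, 0.82 for Rps14, 0.78 for Rps6 and 0.70 for Rpl11.

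Relative to the mean of the members, the same interaction passed in both directions. It was 0.77 for Rpl38, 0.73 for Rps21, 0.68 for Rps27 and 0.48 for Rps24, and it was -3.43 for Rpl29, -0.76 for Rpl28 and -0.62 for Rps2. The Rpl29 value rests on libraries that differed several-fold within their groups. These centred calls are barely corrected for multiple testing, because most genes tested pass after centring.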

How the results depend on the processing

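Both tissue comparisons kept their direction: 68 to 72 members rose in Ly6C and 50 to 72 in Ly6G over the settings tried, with 3 lower in Ly6G under median-of-ratios factors, 2 under quantile normalization, and 1 on an equal-sum (TPM) scale that left out S100a8 and S100a9 or without the variance trend. Leaving out 1 library gave 69 to 71 and 60 to 65, with 0 to 1 lower in Ly6G. Ly6C tumor against Ly6G tumor was the least stable count of higher members: 5 on the TPM scale, 11 when that scale left out S100a8 and S100a9, 12 by quantile normalization, 6 without a filter, 62 with only the groups compared, 69 scaled to pan-leukocyte genes, 0 without the libraries of highest mitochondrial share, and 3 to 60 without 1 library. The share of all genes tested called higher there moved too. It was 0.794% on the TPM scale, 8.99% by quantile normalization, 10.3% with only the groups compared and 77.0% scaled to pan-leukocyte genes. Without the libraries of highest mitochondrial share it was 0.0661%, without Ly6C tumor 3 0.580% and without Ly6C spleen 2 9.14%. For Ly6C spleen against Ly6G spleen, 3 were higher and 7 lower on the TPM scale, 1 was higher when it left out S100a8 and S100a9, and 51 were lower by median-of-ratios, 11 without a filter, 10 with only the groups compared and 0 scaled to pan-leukocyte genes. Without 1 library 11 to 35 were lower (35 without Ly6C spleen 2, 12 without Ly6C spleen 3, 11 without Ly6G spleen 3) and 0 to 1 higher. The interaction count was 15 on the TPM scale, 24 without a filter, 19 without the libraries of highest mitochondrial share, and 31 to 62 without 1 library (31 without Ly6G tumor 3), with 0 to 1 in the other direction.

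Relative to the members' mean, the interaction called lower 10 members with a pseudocount of 0.1, 3 without a filter, 9 with a filter at 5 FPKM, 8 with the median as centre, 8 with overlapping rows added, 3 without the libraries of highest mitochondrial share and 3 to 7 without 1 library. In tumor 2 were lower with a pseudocount of 5, 3 without a filter and 0 to 1 without 1 library. In spleen 5 were higher and 5 lower with only the groups compared, and 10 were higher with overlapping rows added. The cause of these shifts was not tested.

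Signs reversed mainly for genes within their error. Rpl13a in Ly6G was -0.39 by median-of-ratios, -0.0085 by quantile and -0.21 to 0.77 without 1 library. Rpl29 in Ly6C was -0.0137 (TPM), -0.23 (median-of-ratios), -0.0278 (quantile), -0.29 (TPM less S100a8 and S100a9), -0.59 to 0.80 without 1 library and -0.59 without the libraries of highest mitochondrial share, and 0.18 between the labels in tumor scaled to pan-leukocyte genes. Rpl17 with overlapping rows added was 0.28 between the labels in tumor, and -0.0856 and -0.62 relative to the members in Ly6C and Ly6G. Rpl21 between the labels in tumor was -0.0388 and -0.0519 on the TPM scales, -0.89 to 1.253 without 1 library and -0.0587 without the libraries of highest mitochondrial share, and relative to the members -1.43 to 0.72 without 1 library and 0.20 with rows added. In Ly6G it was -1.01 to 0.45 without 1 library, 1.84 scaled to pan-leukocyte genes and 0.71 with rows added. The interaction of Rpl28 was -0.24 and -0.0965 on the TPM scales and -0.0359 to 0.31 without 1 library, and that of Rps2 was -0.14 (TPM) and -0.0752 (quantile). Rps24 and Rps9 in Ly6G were 0.18 and 0.0304 (TPM) and 2.24 and 2.14 scaled to pan-leukocyte genes. Rps25 in Ly6G was -0.20 and Rpl7a in spleen -0.0411 by median-of-ratios, and Rps9 in Ly6C was -0.0966 by quantile normalization.

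Whether same-numbered libraries are paired could not be decided from 3 libraries a group, whose deviations from their mean depend on each other. Of 18 correlations between same-numbered libraries 5 exceeded 0.1, from -0.36 to 0.28. The highest was between Ly6C tumor 3 and Ly6G tumor 3, the libraries of highest mitochondrial share. In 14 of 36 comparisons of a library with the libraries of another group it correlated best with its own number. With a replicate block 26 members were higher in Ly6C tumor than in Ly6G tumor in place of 40, and no other count moved by over 1.5 times. Precision is limited by 3 libraries a group and by unknown depth.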

Other observations

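Between the labels in spleen, 8 of 12 genes of mTORC1 and TOP control were higher in Ly6C than in Ly6G and none lower, where 22.1% of all genes tested were higher and 8.59% lower. Their median log2 difference was 0.59, against 0.11 over all genes tested and -0.36 for the 72 members. Over 5 other scalings between libraries their median was 0.45 to 0.85, with 1 to 9 higher (1 scaled to the pan-leukocyte genes) and none lower, while the members' median was -0.62 to -0.0437. The tissue difference of 6 of the 12 was smaller in Ly6C than in Ly6G and of none larger, where 15.8% of all genes had a smaller and 6.02% a larger one. Scaled to the pan-leukocyte genes, none was smaller and 1 larger. Between the labels in tumor, 21 of 78 mitochondrial ribosomal protein genes were higher in Ly6C and none lower (median 0.43), where 5.8% of all genes were higher and 8.7% lower, and 4 to 78 were higher over the other scalings. Scaled to the pan-leukocyte genes, 77.0% of all genes tested were higher in Ly6C tumor than in Ly6G tumor. Of the 8 stalk and fusion genes, 4 were higher in Ly6C tumor than in Ly6G tumor (0 to 8 over the other scalings). In spleen 2 of them were lower in Ly6C than in Ly6G (0 to 3). Of the 13 eIF3 subunits, 6 were higher in Ly6C tumor than in Ly6G tumor (0 to 13 over the other scalings) and 5 in Ly6C spleen than in Ly6G spleen (0 to 7). The difference between these lists and the members was not tested.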
